A study of Homo sapiens with 12 samples.

Results

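The 10 genes described here encode the core machinery of non-homologous end joining. They were taken by gene name from 60558 genes listed in both expression tables of the series, and each of the 10 was found once in each table. RNA was sequenced from MDA-MB-231, an established line of triple-negative breast cancer cells that lacks the estrogen and progesterone receptors. The first experiment compared NONO knockdown (NONO KD) with its own NC (negative control) group, and the second compared PKM2 knockdown (PKM2 KD) with a separate NC group. Each of the 4 groups held 3 libraries, 12 in all. The labels give the NC cells as WT in genotype and all cells as the same line. Which knockdown reagent produced each knockdown, for how long, and whether repeats came from separate cultures are not given in the sources used here, so the p-values measure only the spread between these libraries. NONO is a nuclear RNA- and DNA-binding protein with a described role in end joining, and PKM2 is a splice form of the glycolytic enzyme pyruvate kinase M.

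In non-homologous end joining the Ku ring, a pair of XRCC5 (Ku80) and XRCC6 (Ku70), threads onto a broken DNA end and recruits the kinase encoded by PRKDC (DNA-PKcs). The nuclease Artemis (DCLRE1C) and the polymerases lambda (POLL) and mu (POLM) trim and fill ends that do not match, and the ligase LIG4 with its scaffold XRCC4 seals them. XLF (NHEJ1) and PAXX help to hold the ends together, and proliferating cells use the pathway in every phase of the cycle.

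The promoters of the genes with the largest fall and the largest rise after PKM2 knockdown, as fitted on counts, are shown first. The changes below were not tested against these sequences. Promoters from RefSeq (GRCh38.p14) were available here for 8 of the 10 genes, 15 windows in all, and none was available for XRCC5 or PRKDC. The windows below stop before the first annotated base of the transcript and run 5′ to 3′ on the gene's strand. POLM lies on the minus strand (240 bases, chr7:44082541-44082780) and XRCC4 on the plus strand (201 bases, chr5:83077297-83077497). Capitals mark each match to a searched motif, on either strand.
POLM: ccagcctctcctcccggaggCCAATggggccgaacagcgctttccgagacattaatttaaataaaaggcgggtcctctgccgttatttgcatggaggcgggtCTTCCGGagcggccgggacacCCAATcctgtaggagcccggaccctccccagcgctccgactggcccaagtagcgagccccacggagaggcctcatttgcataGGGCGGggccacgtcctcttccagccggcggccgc
XRCC4: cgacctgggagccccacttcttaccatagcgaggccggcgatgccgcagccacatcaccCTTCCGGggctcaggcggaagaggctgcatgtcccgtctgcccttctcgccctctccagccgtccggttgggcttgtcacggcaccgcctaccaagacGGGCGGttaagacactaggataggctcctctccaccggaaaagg

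Each motif was searched on both strands. No capital run above belongs to more than 1 motif. The POLM window held CCAAT at 2 places, and GGGCGG and CCGGAAG at 1 place each. The XRCC4 window held GGGCGG and CCGGAAG once each. Over the full windows, which run from 250 bases before to 50 bases after the start, CCGGAAG was present in 10 of the 15 promoters of these genes and in 10.3% of all 35116 promoters. The CCAAT box was present in 8 of the 15 against 34.6% of all promoters. The GC box GGGCGG was present in 10 of the 15 against 45.0% of all promoters. The motif TTTGGCGC occurred in the XRCC6 window alone among the 15 and in 0.652% of all promoters. No match in the 15 was found for the E-box CACGTG (7.26% of all promoters), for the motif TTTCGCGC (0.515% of all promoters) or for the NRF1 palindrome (1.24% of all promoters). Several of these windows overlap, as for LIG4 with 5 listed starts, so the 15 are not independent, and a match is a match of letters only.

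The libraries held 19861762 to 20981712 estimated read counts in the NONO experiment and 24097948 to 28455268 in the PKM2 experiment. NONO fell from 358 to 391 CPM (counts scaled to library size by the TMM method) in NC libraries to 61.8 to 64.3 in NONO KD libraries, a log2 fold change of -2.57 (edgeR quasi-likelihood test, adjusted p = 1.17e-10). PKM, counted as a gene with no split between its splice forms, fell from 2211 to 2324 CPM to 218 to 234 CPM in the PKM2 KD libraries (log2 fold change -3.32, adjusted p = 7.03e-12 in the same test). Each targeted gene rose in the other experiment. NONO was at 352 to 370 CPM in NC and 443 to 454 CPM in PKM2 KD libraries (0.30, adjusted p = 7.54e-05, edgeR). PKM was at 2159 to 2195 CPM in NC and 2579 to 2630 CPM in NONO KD libraries (0.26, adjusted p = 1.22e-04, edgeR). Of 3 genes that mark this mesenchymal-like line, CD44 was at 275 to 330 TPM (counts scaled by transcript length and library size) over the 12 libraries. VIM was at 3698 to 3843 TPM in NC and 4369 to 4466 TPM in NONO KD libraries, and at 3324 to 3457 TPM in NC and 3291 to 3480.21 TPM in PKM2 KD libraries. KRT18 was at 206 to 258 TPM in NC and 219 to 226 TPM in NONO KD libraries, and at 224 to 231 TPM in NC and 380.15 to 399 TPM in PKM2 KD libraries, without overlap in the latter. ESR1, PGR and CDH1 stayed at or below 0.41 TPM. Among the markers of immune, endothelial and fibroblast cells, the T cell marker CD3E was at 0 in every library. The summed level of these markers was 127 to 134 TPM in NC and 152 to 156 TPM in NONO KD libraries, and 143 to 145 TPM in NC and 61.2 to 65.6 TPM in PKM2 KD libraries, most of it CD68 (52.6 to 152.93 TPM). Mitochondrial genes took 4.88% to 5.51% of counts in the NONO experiment, 5.28% to 5.54% in the PKM2 experiment's NC libraries and 4.51% to 4.66% in PKM2 KD libraries. The part of these shifts in the results below was not tested. Replicate 1 of the NONO experiment's NC group and replicate 3 of PKM2 KD stood farther from their own replicates (root mean square log2 difference 0.280 and 0.257) than the other 10 libraries (0.200 to 0.233), and values without them are given where they matter.

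The genes differed widely in level before any knockdown. Levels between genes are compared in TPM, which is scaled by transcript length. Among the NC libraries of the NONO experiment the Ku subunit XRCC6 was highest, at 379.96 ± 25.8 TPM (SD, n = 3), followed by its partner XRCC5 at 199.6 ± 6.13 TPM and the kinase PRKDC at 126 ± 0.456 TPM. PAXX came next at 73.9 ± 5.50 TPM. The remaining genes were below 30 TPM, from the nuclease DCLRE1C at 25.6 ± 1.17 TPM to XLF (NHEJ1) at 7.41 ± 1.55 TPM, so that the lowest and the highest differed by a factor of 51.3. Of the 9 neighbouring pairs in this order, 7 had libraries that did not overlap. DCLRE1C overlapped with XRCC4 (23.9 ± 1.43 TPM), and POLL (14.3 ± 1.02 TPM) with LIG4 (13.4 ± 0.303 TPM). The first 6 places were held by the same genes in the PKM2 experiment's NC libraries, whose table was normalized separately, with XRCC6 at 406 ± 13.8 TPM. At the foot of that order NHEJ1, POLM and POLL lay between 10.7 and 10.9 TPM on average and could not be ordered.

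**Figure D1:**
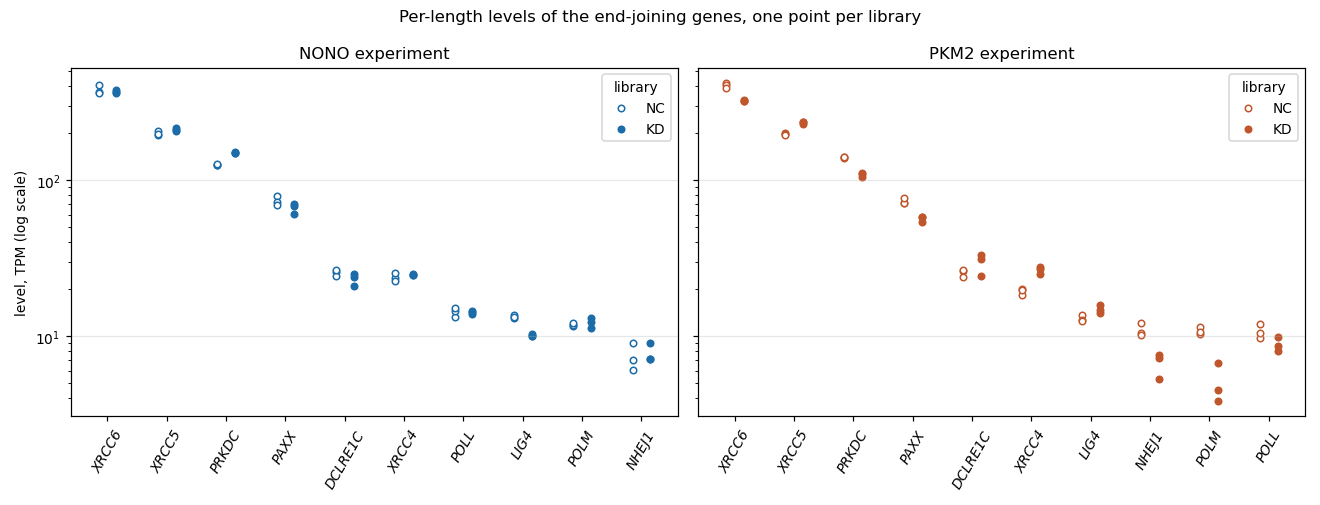
Levels of the 10 end-joining genes in TPM on a log axis, 1 point per library, with NC libraries open and knockdown libraries filled, ordered by the NC mean of each experiment. XRCC6 and XRCC5 lead both NC orders at 379.96 and 199.6 TPM and at 406 and 198 TPM, and POLM goes from 10.8 to 5.05 TPM in the PKM2 experiment.

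After NONO knockdown 3 of the 10 genes passed an adjusted p of 0.05 (edgeR, quasi-likelihood, Benjamini-Hochberg over 14832 genes): PRKDC and XRCC5 rose and LIG4 fell. Of all genes tested 33.4% passed (16.2% higher and 17.2% lower), so 3 of 10 is close to the share in the transcriptome. The 3 changes were between 1.10-fold and 1.27-fold. None passed the study's 2-fold rule when it was applied to this edgeR fit, where 2.95% of all genes tested passed. The study's methods give no model or count filter, so its own calls need not be the same. Without the low-count filter 930 genes passed this 2-fold rule in the edgeR fit, against 437 with the filter. The median log2 fold change of the 10 genes was 0.06, against -0.01 over all genes.

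PRKDC showed the larger rise. It was at 760.5, 669 and 713 CPM in the NC libraries and at 871, 876 and 897 CPM in the NONO KD libraries. Every knockdown library was above every NC library. The log2 fold change was 0.30 (SE 0.05, adjusted p = 5.63e-04, edgeR), or 1.23-fold. In TPM the NC libraries lay within 125.55 to 126.43 and the knockdown libraries within 149.6 to 152.46. TPM divides by a transcript length that the authors' quantification assigned in each library. For PRKDC this length (counts over TPM, scaled to the median gene of each library) was 10518, 9336 and 9972 bases in NC. It was 9735, 9822 and 9990 bases in KD libraries. In NC it followed the order of the CPM, so the narrow TPM range is not a separate measure of the spread seen in CPM. XRCC5 was at 482, 455 and 456 CPM in NC and at 510.1, 500.7 and 525 CPM in NONO KD libraries, again without overlap. Its log2 fold change was 0.14 (SE 0.04, adjusted p = 0.0204, edgeR). This call was lost in 5 of the 6 edgeR fits that left out 1 library, namely those without NC replicate 2 or 3 or without any one of the KD replicates (adjusted p 0.0502 to 0.104), and it was lost on TPM (log2 difference 0.09, adjusted p = 0.173, limma). In that TPM fit the median log2 difference over all genes was -0.05, against -0.01 in the edgeR fit. The other Ku subunit, XRCC6, was at 604, 535 and 532 CPM in NC and 558, 563 and 580.04 CPM in KD libraries, where the groups overlapped and no change was called (log2 fold change 0.03, SE 0.05, adjusted p = 0.750, edgeR).

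LIG4, the ligase of the pathway, went the other way. The NC libraries were at 39.2, 37.3 and 37.3 CPM and the NONO KD libraries at 29.7, 29.5 and 30.5 CPM. The lowest NC library was above the highest knockdown library by more than the range of either group. The log2 fold change was -0.34 (SE 0.06, adjusted p = 0.00118, edgeR), 1.27-fold lower, and it stayed between -0.36 and -0.31 whichever library was left out. XRCC4, the scaffold bound to LIG4, was at 22.4, 21.3 and 23.7 CPM in NC and 24.6, 25.0 and 24.0 CPM in KD libraries. The XRCC4 groups did not overlap, although the change did not pass (log2 fold change 0.13, SE 0.07, adjusted p = 0.215, edgeR). With XRCC4, 4 of the 10 genes had groups that did not overlap, against 46.1% of all genes tested.

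The 5 remaining genes did not pass after NONO knockdown, and the groups of each overlapped. Their log2 fold changes were 0.27 for NHEJ1 (SE 0.14), 0.10 for POLL (SE 0.10), -0.02 for DCLRE1C (SE 0.06), -0.04 for POLM (SE 0.08) and -0.09 for PAXX (SE 0.08). NHEJ1, the least abundant, was at 9.89, 7.49 and 7.62 CPM in NC and 11.0, 9.05 and 10.02 CPM in KD libraries, with NC replicate 1 the only NC library inside the range of the knockdown. Without NC replicate 1, 5 of the 10 genes passed, with NHEJ1 (log2 fold change 0.42, adjusted p = 0.0132, edgeR) and XRCC6 (0.10, adjusted p = 0.0121) added to the 3. Genes called in the whole table then numbered 6249 in place of 4954.

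**Figure D2:**
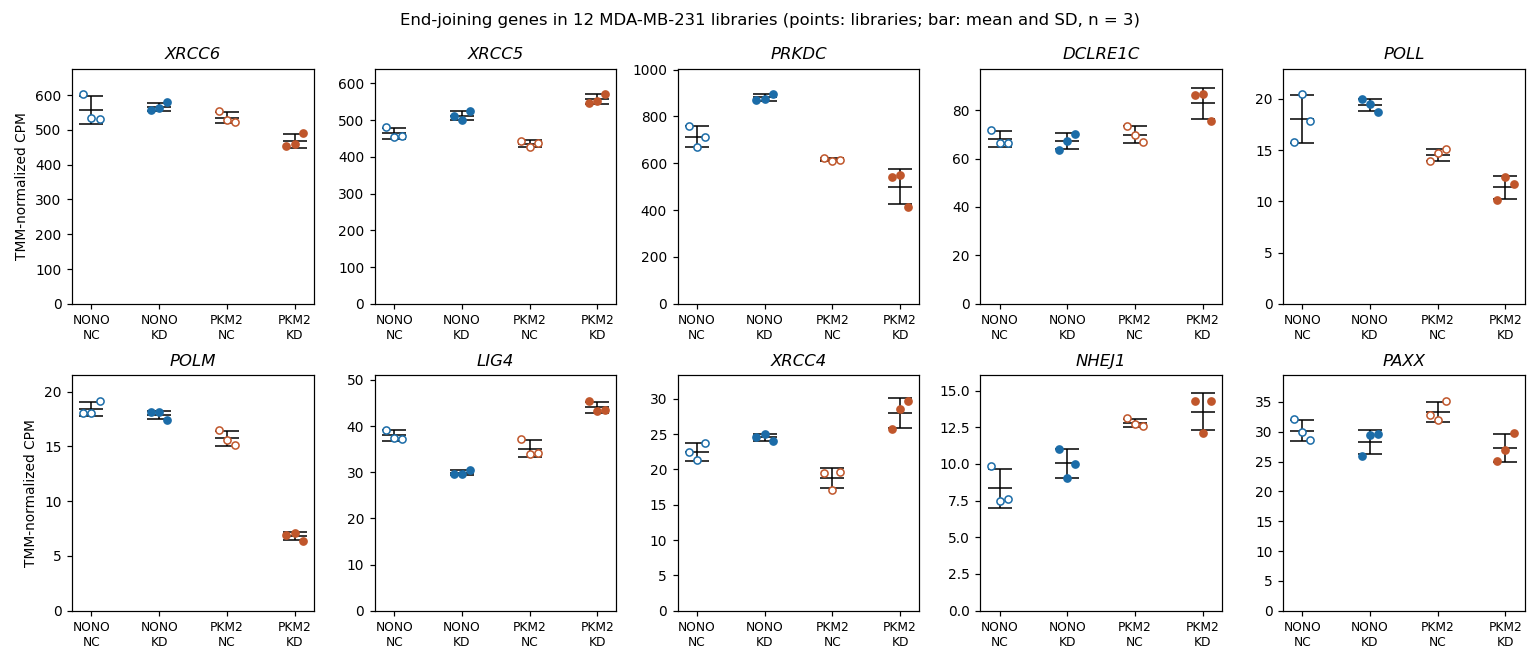
TMM-normalized CPM of each end-joining gene in the 12 libraries, from 0 upwards, with NC libraries open, knockdown libraries filled, and the mean and SD of each group of 3. POLM stands at 15.1 to 16.4 CPM in NC and 6.38 to 7.13 CPM in PKM2 KD libraries, while LIG4 is lower after NONO knockdown (29.5 to 30.5 CPM) and higher after PKM2 knockdown (43.2 to 45.5 CPM) than in its NC libraries.

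After PKM2 knockdown 9 of the 10 genes passed the same test over 15524 genes, with 4 higher (XRCC4, XRCC5, LIG4 and DCLRE1C) and 5 lower (POLM, POLL, PRKDC, PAXX and XRCC6). This comparison called 68.4% of all genes tested, 33.6% higher and 34.7% lower. The same 9 genes had groups that did not overlap, against 71.9% of all genes. POLM alone changed by more than 2-fold, the fold the study used, a size that 20.8% of all genes tested reached with an unadjusted p under 0.05. The median log2 fold change of the 10 was -0.06, against -0.01 over all genes, and 9 were called whichever library was left out.

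The polymerases fell. POLM, which can add and copy bases across ends that hardly pair, was at 16.4, 15.6 and 15.1 CPM in NC and at 6.88, 7.13 and 6.38 CPM in PKM2 KD libraries. The groups were far apart, with the highest knockdown library below the lowest NC library by more than the whole range of either group. The log2 fold change was -1.21 (SE 0.09, adjusted p = 3.69e-07, edgeR), 2.31-fold lower, and -1.24 to -1.16 with any 1 library left out. POLL, which fills short gaps, was at 13.9, 14.7 and 15.1 CPM in NC and 10.1, 12.3 and 11.7 CPM in KD libraries. Its groups did not overlap, and its log2 fold change was -0.36 (SE 0.10, adjusted p = 0.00591, edgeR), but it was not called on TPM (-0.24, adjusted p = 0.0970, limma). The nuclease DCLRE1C rose, from 73.4, 69.8 and 66.7 CPM to 86.1, 86.8 and 75.5 CPM, with KD replicate 3 close to the highest NC library. Its log2 fold change was 0.24 (SE 0.07, adjusted p = 0.00590, edgeR), and this call too was absent on TPM (0.18, adjusted p = 0.218, limma). The median log2 difference over all genes in that TPM fit was -0.09, against -0.01 in the edgeR fit.

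The ligase pair rose together. XRCC4 was at 19.5, 17.1 and 19.7 CPM in NC and at 25.7, 28.6 and 29.7 CPM in PKM2 KD libraries, the largest rise among the 10 genes in this fit, though below that of XRCC5 once the GC and length trend of all genes is subtracted (log2 0.31 and 0.35). The groups did not overlap, and the log2 fold change was 0.58 (SE 0.08, adjusted p = 6.35e-05, edgeR), or 1.49-fold. LIG4 was at 37.2, 33.9 and 34.1 CPM in NC and at 45.5, 43.2 and 43.5 CPM in KD libraries. Every KD library was above every NC library, and the log2 fold change was 0.33 (SE 0.06, adjusted p = 4.90e-04, edgeR), with no call on TPM (0.19, adjusted p = 0.0769, limma).

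The Ku subunits parted. XRCC5 was at 444, 426 and 438 CPM in NC and 546, 553 and 572 CPM in PKM2 KD libraries, while XRCC6 was at 554, 529 and 524 CPM in NC and 453, 458 and 492 CPM in KD libraries. Neither gene's groups overlapped, and the directions were opposite. The log2 fold changes were 0.35 for XRCC5 (SE 0.04, adjusted p = 1.91e-05) and -0.19 for XRCC6 (SE 0.05, adjusted p = 0.00374, both edgeR). PRKDC, the kinase that Ku recruits, was at 623, 609 and 614 CPM in NC and at 539, 549 and 413 CPM in KD libraries. All 3 knockdown libraries were below the NC range, with KD replicate 3 far below the other two. The log2 fold change was -0.30 (SE 0.09, adjusted p = 0.00979, edgeR), and it was -0.17 without KD replicate 3, still past the threshold. In TPM that library stood less apart, at 104.55 against 110.3 and 111.6 in the other knockdown libraries and 139.8 to 141.85 in NC. The length assigned to PRKDC was 6141 bases in that library, 8265 and 8134 bases in the other knockdown libraries and 7644 to 7833 bases in NC. Its TPM is therefore not a separate measure of the gap seen in CPM.

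Of the proteins that hold ends together, PAXX fell and NHEJ1 depended on the unit. PAXX was at 32.8, 31.9 and 35.2 CPM in NC and 25.1, 26.9 and 29.8 CPM in PKM2 KD libraries, without overlap (log2 fold change -0.29, SE 0.08, adjusted p = 0.00531, edgeR). NHEJ1 was at 13.1, 12.7 and 12.6 CPM in NC and 14.3, 12.1 and 14.3 CPM in KD libraries, an overlap with no call (0.08, SE 0.09, adjusted p = 0.443, edgeR). On TPM the same gene was at 12.1, 10.45 and 10.2 in NC and 7.63, 5.32 and 7.21 in KD libraries, where the groups did not overlap and a fall was called (log2 difference -0.64, adjusted p = 0.00606, limma). Counts divided by TPM give the transcript length that the authors' quantification assigned, here scaled to the median gene of each library. For NHEJ1 this length was 1905 to 2194 bases in NC and 3083 to 3774 bases in PKM2 KD libraries, a log2 change of 0.67. A change of 0.5 or more in either direction was found in 125 of 10667 genes with at least 100 counts in every library of that experiment, and among the 10 genes in NHEJ1 alone. In the NONO experiment the same length of NHEJ1 was 1865 to 2226 bases in NC and 2058 to 2402 bases in KD libraries. This length was computed after the values had been seen.

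The PKM2 changes moved with base composition over the whole table, with a Spearman correlation across genes of -0.16 between log2 fold change and GC content (-0.04 after NONO knockdown). With transcript length the correlation was -0.07 (-0.03 after NONO knockdown). By their longest listed transcript XRCC4 and LIG4, which rose, hold 36.7% and 36.2% GC, while PAXX, POLM and POLL, which fell, hold 65.4%, 61.5% and 55.8%. The other called genes lay closer together. DCLRE1C and XRCC5, which rose, hold 41.3% and 44.2%, and PRKDC and XRCC6, which fell, hold 45.3% and 50.7%. With the GC and length trend of all genes subtracted, the log2 changes after PKM2 knockdown were 0.31 for XRCC4, 0.19 for LIG4, 0.16 for DCLRE1C, -0.13 for PRKDC, -0.15 for PAXX and -0.98 for POLM, each closer to 0 than before and POLM then under 2-fold. XRCC6 was farther from 0, at -0.26, and XRCC5 was at 0.35, POLL at -0.29 and NHEJ1 at 0.10. Each of the 10 kept its direction.

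**Figure D3:**
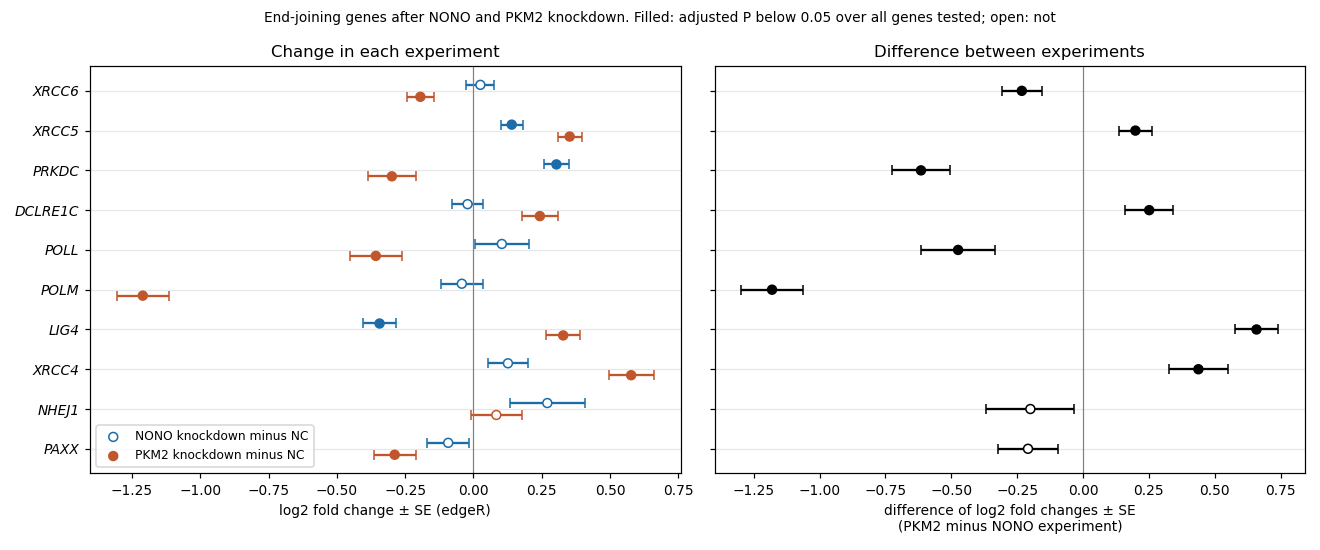
Left, log2 fold change of knockdown against NC with its SE for each end-joining gene in the NONO and PKM2 experiments; right, the difference of the log2 fold changes (PKM2 minus NONO) with its SE; filled points passed an adjusted p of 0.05. LIG4 and PRKDC lie on opposite sides of 0 in the experiments, and POLM has the largest difference at -1.18.

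The changes were then compared between the experiments, each against its own NC group, in one edgeR fit of all 12 libraries. The difference (PKM2 minus NONO) passed for 8 of the 10 genes, against 53.1% of 15995 genes tested (25.7% positive and 27.4% negative). A difference of more than 2-fold was met by POLM alone, against 18.1% of all genes. It was positive for LIG4 (0.66, SE 0.08, adjusted p = 3.44e-06), XRCC4 (0.44, SE 0.11, adjusted p = 0.00306), DCLRE1C (0.25, SE 0.09, adjusted p = 0.0274) and XRCC5 (0.20, SE 0.06, adjusted p = 0.0114). It was negative for POLM (-1.18, SE 0.12, adjusted p = 2.04e-07), PRKDC (-0.62, SE 0.11, adjusted p = 1.75e-04), POLL (-0.47, SE 0.14, adjusted p = 0.00933) and XRCC6 (-0.23, SE 0.08, adjusted p = 0.0166). The values for NHEJ1 (-0.20, SE 0.17) and PAXX (-0.21, SE 0.11) did not pass. LIG4 and PRKDC were called in both experiments in opposite directions, which held for 7.97% of the 14525 genes tested in both. XRCC5 was called upwards in both, and calls in both experiments in either direction were made for 27.2% of those genes. The call for DCLRE1C was lost without NONO KD replicate 1 or 2, PKM2 NC replicate 3 or PKM2 KD replicate 1 or 2 (adjusted p 0.0534 to 0.0726, edgeR), and that for XRCC6 without replicate 2 or 3 of the NONO experiment's NC group (0.0701 and 0.0798). Without PKM2 KD replicate 3 PAXX passed as well (-0.28, adjusted p = 0.0382, edgeR). On TPM (limma) the calls for POLL (-0.24, adjusted p = 0.167) and DCLRE1C (0.31, adjusted p = 0.118) were lost and NHEJ1 passed (-0.70, adjusted p = 0.0221), and with the GC and length trend subtracted the differences were 0.18 for XRCC4, 0.15 for DCLRE1C and -0.93, under 2-fold, for POLM.

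Ku and the ligase complex each work as a fixed assembly of partner proteins, so the ratio of partner transcripts was taken within each library from TPM, where library size cancels. XRCC5 stood at 0.504, 0.532 and 0.543 of XRCC6 in the NC libraries of the NONO experiment and at 0.576, 0.568 and 0.571 after NONO knockdown. In the PKM2 experiment the ratio was 0.480, 0.483 and 0.501 in NC and 0.737, 0.727 and 0.709 in KD libraries. In both experiments the groups did not overlap, and the shift was 0.12 on the log2 scale after NONO knockdown and 0.57 after PKM2 knockdown (each p = 0.1, two-sided exact permutation test). With 3 against 3 libraries 0.1 is the smallest p possible, so these tests could not reach 0.05.

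XRCC4 stood at 1.73, 1.71 and 1.92 times LIG4 in NC and at 2.47, 2.50 and 2.37 times after NONO knockdown. The log2 shift was 0.45 without overlap (exact permutation p = 0.1, two-sided). In the PKM2 experiment the ratio was 1.47, 1.45 and 1.60 in NC and 1.59, 1.87 and 1.92 in KD libraries. These groups touched, and the log2 shift was 0.25 (exact permutation p = 0.2, two-sided).

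**Figure D4:**
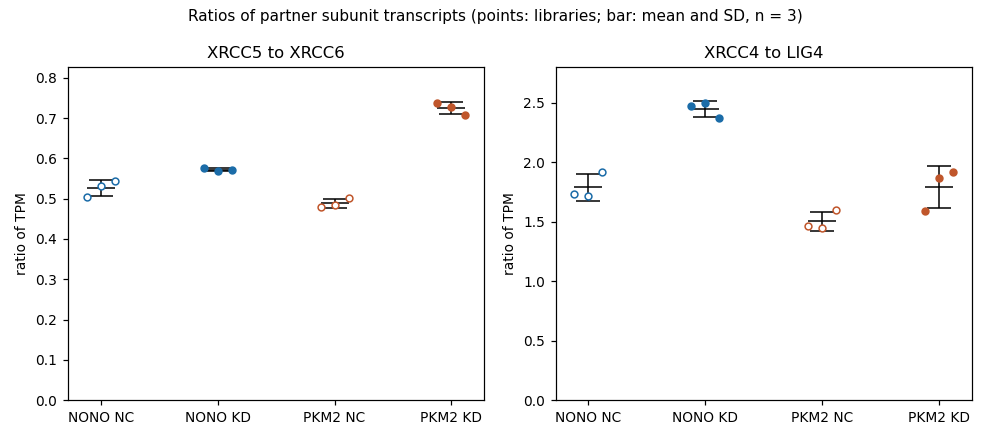
Ratio of TPM between partner subunits in each library, XRCC5 to XRCC6 on the left and XRCC4 to LIG4 on the right, with the mean and SD of 3 libraries. The Ku ratio is 0.709 to 0.737 in PKM2 KD libraries and 0.480 to 0.501 in their NC libraries, and the XRCC4 to LIG4 ratio is 2.37 to 2.50 in NONO KD libraries.

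The genes lie at separate places of the genome (GRCh38, GENCODE 29): XRCC6 at chr22:41621119-41664048, XRCC5 at chr2:216107464-216206303, LIG4 at chr13:108207439-108218368, XRCC4 at chr5:83077498-83353787, NHEJ1 at chr2:219075317-219160865, DCLRE1C at chr10:14897359-14954432, POLL at chr10:101578882-101588270, POLM at chr7:44072247-44082540, PAXX at chr9:136992418-136993984 and PRKDC on chromosome 8. Another gene starts on the opposite strand within 1000 bases of 4 of them. ABHD13, 11 bases from the LIG4 start, rose after both knockdowns (log2 fold change 0.29, adjusted p = 0.00996 after NONO and 0.97, adjusted p = 8.48e-07 after PKM2 knockdown, edgeR), whereas LIG4 fell after the first and rose after the second. TMEM167A, 365 bases from the XRCC4 start, rose after PKM2 knockdown with XRCC4 (0.93, adjusted p = 1.87e-08, edgeR) and was at 0.09 after NONO knockdown with no call. MCM4, a replication helicase subunit 2 bases from the PRKDC start, was not called in either experiment (0.06 and -0.04), nor was DESI1, 23 bases from the XRCC6 start (-0.07 and -0.07).

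Some of these genes share exon bases with another gene, and the use of strand in counting is not given in the sources used here. DCLRE1C shares 159 exon bases with SUV39H2 on the opposite strand, which rose in both experiments (log2 fold change 0.48 and 0.71). POLL shares 243 exon bases with DPCD on the opposite strand, which fell after PKM2 knockdown (-0.62, adjusted p = 0.00199, edgeR) and had 75 to 186 counts a library over both experiments. NHEJ1 shares 2034 bases on its own strand with AC068946.1, which had 4.15 to 25.9 counts a library. POLM shares 53 bases with MIR6838, listed at 0 counts. The XRCC6 pseudogenes had at most 6 counts in any library. How much the overlaps changed the DCLRE1C, POLL and NHEJ1 counts was not tested.

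The wider pathway was described with lists of genes that act around the core. Of all genes tested 33.4% were called after NONO knockdown (16.2% higher and 17.2% lower). After PKM2 knockdown 68.4% were called (33.6% higher and 34.7% lower). For the accessory factors the shares were 44.4% and 66.7%. Accessory factors of end processing were tested for 9 of 10 genes, all but DNTT, which adds bases without a template in lymphoid cells. After NONO knockdown 3 rose and 1 fell, with a median log2 change of -0.02, and the 3 largest were APLF (0.50, adjusted p = 0.0220), WRN (0.27, adjusted p = 0.00772) and TDP1 (0.24, adjusted p = 0.00242, all edgeR). After PKM2 knockdown 4 rose and 2 fell with a median of 0.07, led by TDP1 (-0.56, adjusted p = 3.97e-06), CYREN (0.50, adjusted p = 2.94e-05) and TDP2 (0.43, adjusted p = 2.93e-05, all edgeR). TDP1 and TDP2, which free DNA ends from trapped topoisomerases, thus moved in opposite directions within each experiment, with TDP2 at -0.22 after NONO knockdown (adjusted p = 0.00875, edgeR).

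The 53BP1 and shieldin branch protects ends from resection and thereby favours end joining. Of its tested genes 60% were called after NONO and 81.8% after PKM2 knockdown, against 33.4% and 68.4% of all genes. After NONO knockdown 4 of its 10 tested genes rose and 2 fell (median log2 change 0.09), led by the shieldin subunit SHLD2 (0.59, adjusted p = 2.73e-05), the kinase ATM (0.33, adjusted p = 8.31e-04) and TP53BP1 itself (-0.29, adjusted p = 0.00196, all edgeR). After PKM2 knockdown 6 of 11 rose and 3 fell (median 0.20). TP53BP1 went from a mean of 78.4 to 30.5 CPM (-1.36, adjusted p = 1.11e-08) and SHLD2 from 36.3 to 91.8 CPM (1.34, adjusted p = 3.36e-09, both edgeR). SHLD1, next by size (1.21, adjusted p = 0.0233, edgeR), was near the detection limit at 0.485 and 1.14 CPM, and its groups overlapped.

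Alternative end joining seals breaks without Ku, by pairing short repeats. Of its genes 45.5% were called after NONO and 72.7% after PKM2 knockdown, against 33.4% and 68.4% of all genes. After NONO knockdown 3 of its 11 genes rose and 2 fell (median 0.11), led by the flap nuclease FEN1 (-0.49, adjusted p = 2.50e-04), the resection nuclease MRE11 (0.30, adjusted p = 7.72e-04) and the polymerase theta gene POLQ (0.22, adjusted p = 0.00690, all edgeR). After PKM2 knockdown 4 rose and 4 fell (median -0.05). RAD50, the partner of MRE11, rose from 13.0 to 26.6 CPM (1.03, adjusted p = 7.62e-06), LIG1 fell from 107 to 54.7 CPM (-0.97, adjusted p = 1.15e-08) and XRCC1, the scaffold of LIG3, fell from 18.4 to 10.2 CPM (-0.85, adjusted p = 4.09e-06, all edgeR).

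The close relatives and RNA-binding partners of NONO were counted as 4 identifiers, since MATR3 has 2. After NONO knockdown SFPQ (0.66, adjusted p = 4.06e-05) and PSPC1 (0.52, adjusted p = 1.75e-04) rose and neither MATR3 identifier was called. After PKM2 knockdown PSPC1 (0.34, adjusted p = 1.50e-04) and both MATR3 identifiers (0.33, adjusted p = 6.61e-04, and 0.23, adjusted p = 5.12e-04) rose, and SFPQ was at 0.05 with no call (all edgeR). Of the 4 identifiers 50% were called after NONO and 75% after PKM2 knockdown, against 33.4% and 68.4% of all genes.

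**Figure D5:**
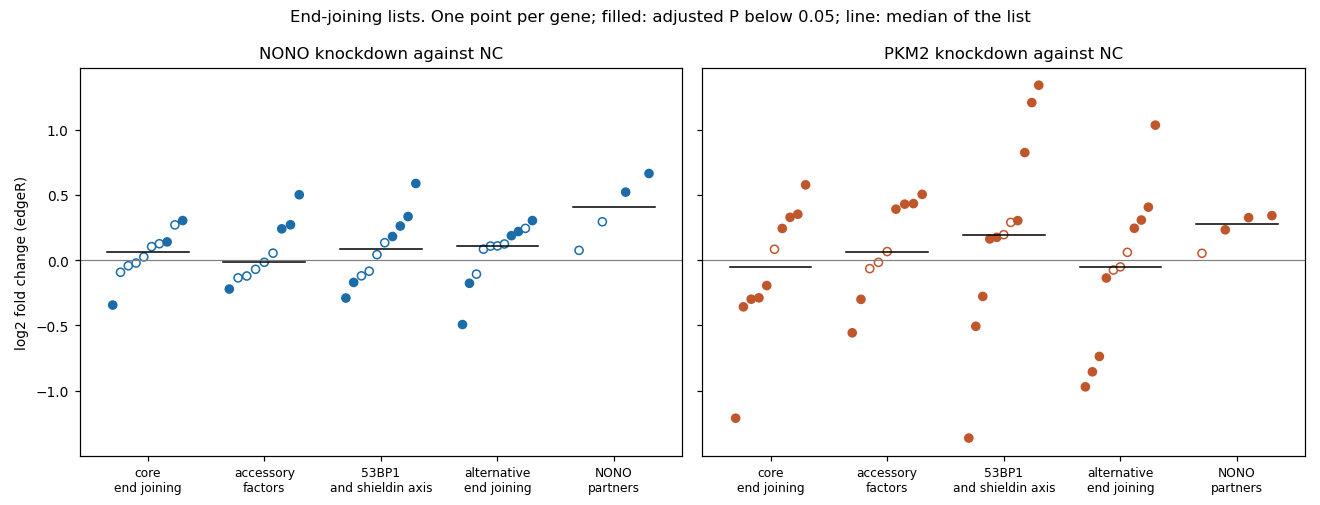
Log2 fold change of every tested gene of the core, accessory, 53BP1 and shieldin, alternative end joining and NONO partner lists, with NONO knockdown on the left and PKM2 knockdown on the right; filled points passed an adjusted p of 0.05 and lines are list medians. Changes spread from -0.49 to 0.66 after NONO knockdown and from -1.36 to 1.34 after PKM2 knockdown, on both sides of 0 in every list but the NONO partners.

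The patterns of the 3 most abundant members over the 12 libraries were compared with those of 14525 genes, as log2 CPM minus the mean of the own NC group. PRKDC was most like OTUD4 (Pearson r = 0.99), TCF20 (0.98) and MGA (0.98), XRCC6 most like DCTPP1 (0.99), PMPCB (0.97) and TRMT10C (0.97), and XRCC5 most like DDX54 (1.00), PPP1CC (1.00) and RIOK1 (0.99). Within the core, XRCC4 and XRCC5 were the most alike pair (r = 0.94) and XRCC4 and POLM the most opposed (r = -0.93). These values describe 4 groups of libraries that share depth and processing within each experiment, and most of the spread lies between groups.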

How the data were processed

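RNA-seq libraries of 12 MDA-MB-231 samples, 3 in each of 4 groups by their GEO titles, were analysed from the deposited gene tables. Per the labels, the submitters' processing notes name fastp, HISAT2, StringTie, RSEM, DESeq2, edgeR and limma and the build hg19, while locations and GC content here were taken from GENCODE 29 on GRCh38. The authors deposited estimated counts and TPM per gene and library in 1 table per experiment. Libraries were assigned to columns by table and column name, and 0 columns of library values were unused. The deposited fold changes and p-values of the authors' own comparisons were not used.

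Estimated counts were rounded and tested with edgeR 4.0.16 (TMM, filterByExpr, quasi-likelihood) in R 4.3.3, with Benjamini-Hochberg adjustment over all genes tested. The difference between knockdowns was tested as an interaction over 12 libraries. Alternatives used DESeq2 1.42.0, RLE factors, no filter, a replicate block, GC and length trends in 20 bins, limma 3.58.1 on TPM, the 2-fold rule and fits without each library. Genes printed were the 10 members, the targeted genes, the 3 largest called changes of each list, neighbours within 1000 bases, genes sharing exons and the 3 most alike patterns. Members and lists were chosen with earlier results of these data known. Replicates differed beyond counting noise (chi-square per degree of freedom 2.34 to 13.2). The fits were tested on simulated data with known changes before use, with the same spread for every gene and no outlying library. At 1.5-fold edgeR recovered 92 of 100 changes for NONO, 94 of 100 for PKM2 and 147 of 197 for the difference. Changes below 1.5-fold were not simulated. One marker of other cell types is not reported here.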

Additional observations from a re-analysis of the deposited data

Results flagged for a closer look

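The change after PKM2 knockdown differed from that after NONO knockdown, by edgeR's test of the difference itself, for 8 of the 10 end-joining genes. As PKM2 minus NONO on the log2 scale, the ligase LIG4 differed by 0.66, its scaffold XRCC4 by 0.44, the nuclease DCLRE1C by 0.25 and the Ku subunit XRCC5 by 0.20. The polymerases differed by -1.18 (POLM) and -0.47 (POLL), the kinase PRKDC by -0.62 and the Ku subunit XRCC6 by -0.23. Of all genes tested 53.1% differed by the same test. Knockdown and experiment cannot be told apart in these differences beyond what each experiment's own NC group removes.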

How the results depend on the processing

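DESeq2, RLE factors and the absence of a count filter left the number of end-joining genes called within 1.5 times. With the study's rule of more than 2-fold and an unadjusted p under 0.05 applied to the edgeR fits, 0 of the 437 genes called after NONO knockdown were end-joining genes, 1 of 3234 after PKM2 knockdown and 1 of 2899 for the difference. After NONO knockdown limma called 2645 genes on log2(TPM + 1), 2657 with 0.1 added and 1699 without a filter, against 4954, and the share of higher calls was 34.4% in place of 48.4%. With 1 library left out, genes called ranged from 3554 to 6249 after NONO knockdown, 9891 to 10863 after PKM2 knockdown and 7969 to 8526 for the difference, and end-joining genes from 2 to 5, 9 to 9 and 7 to 9. Without NC replicate 1, 5 were called after NONO knockdown. The log2 ratio shifts ranged from 0.09 to 0.14 and 0.56 to 0.59 for XRCC5 to XRCC6, and from 0.42 to 0.51 and 0.20 to 0.34 for XRCC4 to LIG4, after NONO and PKM2 knockdown.

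Directions turned for changes that had not passed. After NONO knockdown XRCC6 was at -0.033 to -0.034 and POLM at 0.035 to 0.038 over the limma fits on TPM, and POLL at -0.0044 to -0.0045. XRCC6 was at -0.0012 without NC replicate 3 and ranged up to 0.097 over the fits that left out 1 library. DCLRE1C was at 0.027 without NC replicate 1 and 0.015 without KD replicate 1, within a range of -0.057 to 0.027. After PKM2 knockdown NHEJ1 was at -0.64 on log2(TPM + 1), with or without the filter, and -0.70 with 0.1 added, where limma called a fall (adjusted p 0.00533 to 0.0207). On log2(TPM + 1) the median over all genes was -0.05 after NONO and -0.09 after PKM2 knockdown, against -0.01 in both edgeR fits. The assigned transcript length, taken from counts over TPM as above for NHEJ1, was also compared. Its log2 change after NONO knockdown was 0.004 for XRCC6, -0.14 for POLM, 0.05 for POLL and -0.004 for XRCC5. After PKM2 knockdown it was 0.67 for NHEJ1, -0.22 for POLL, -0.07 for DCLRE1C and 0.008 for LIG4. The part of the shift and of these lengths in the turned directions and in the calls lost on TPM was not tested, nor were other causes.

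Same-numbered libraries of NC and knockdown did not deviate together (r -0.10 to 0.04), and not every library correlated best with its own number. With 3 libraries in a group these values cannot tell whether same-numbered libraries were prepared together. With the replicate number as a block 4351, 10525 and 8239 genes were called, with 3, 9 and 8 end-joining genes, and no end-joining call changed.

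One fit was chosen after seeing the data: without both libraries that stood apart, the difference was called for PAXX too (-0.33, adjusted p = 0.0126, edgeR).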
